A study of Sus scrofa with 63 samples.

Results

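AREG, FGFR2 and ACVR2A are 3 genes of growth factor signalling: a ligand of the EGF receptor, a receptor for fibroblast growth factors, and a receptor for activins. They were found by their symbols in the supplied annotation of a porcine array, and they are 3 of the 6765 genes that carry a symbol there. The annotation gives 1 probe set to AREG, 1 to FGFR2 and 2 to ACVR2A, and for ACVR2A the probe set with the higher mean over the 63 arrays was used. The genes were picked with their differences at 1, 2 and 4 h in view, so those times are given as values, without a test. Differences from 24 h onward were tested.

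The series followed the skin of female Yorkshire crossbred pigs after sulfur mustard, an alkylating agent that blisters skin and kills epidermal cells. Neat agent was placed on depilated ventral abdomen, 400 µL for 8 min, to make lesions of 3 cm, and 8 mm punch biopsies gave 10 µg of total RNA per array. At each of 9 times (1, 2, 4, 24, 48, 72, 168, 336 and 514 h) the arrays fell into 3 groups: exposed sites (n = 3), 1 sham animal that was prepared without receiving the agent, and unexposed control sites (n = 3). The design has 4 animals per time, 3 with exposed and control sites and 1 sham, so the controls are unexposed skin of injured animals, and every time has its own animals. For the last time, labelled 514 h, the design states a number of days that comes to slightly less. A biopsy holds epidermis, dermis, vessels, infiltrating cells and a varying amount of underlying muscle. A lower signal in such bulk tissue can mean fewer cells of a type or less RNA per cell, and these cannot be told apart here.

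Amphiregulin, the product of AREG, is made as a membrane protein, is released by the sheddase ADAM17 and activates EGFR on keratinocytes, where EGFR signalling drives growth and migration. FGFR2 is a receptor tyrosine kinase. Its epithelial splice form binds FGF7 and FGF10, which dermal fibroblasts secrete, and serves epidermal growth, hair follicles and the skin barrier. ACVR2A is a type II receptor that binds activins and related ligands, recruits a type I receptor such as ACVR1B, and signals through SMAD proteins. Activin is known in mouse skin for its part in wound repair.

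All signals are the authors' log2 values, so a step of 1 is a doubling. Averaged over the 63 arrays FGFR2 had a signal of 9.33, above 77.9% of the 23999 probe sets tested. ACVR2A averaged 8.62, at percentile 65.4. AREG averaged 6.62, at percentile 28.1, and in such dim probe sets the authors' normalisation compresses differences. Probe sets differ in brightness for the same amount of RNA, so these signals do not rank the 3 genes against each other. Which splice forms of FGFR2 its probe set detects was not checked, since no probe sequences were used here.

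AREG, the ligand, was the member that moved most. Its signal was higher in exposed than in control skin at all 5 times from 24 to 336 h, by 1.14 to 2.66 on the log2 scale. It reached its highest mean at 168 h, 6.32-fold above control, and by 514 h its difference no longer passed the test. In the first hours it stood at 5.61, 5.98 and 5.84 in exposed skin at 1 h, 5.63 in the sham, and 5.70, 5.76 and 5.79 in control skin, a difference of 0.060. These values lie among each other. At 2 h exposed skin gave 6.66, 7.32 and 6.27, the sham 5.99 and control skin 5.78, 6.40 and 6.03, with a difference of 0.68. The exposed array at 6.27 lay below the control array at 6.40, so the groups overlapped. At 4 h the exposed values were 7.05, 7.23 and 7.60, the sham 6.32 and the control values 5.81, 6.19 and 5.87, a difference of 1.34. All 3 exposed arrays then lay above all 3 controls, as 5.76% of genes do at that time.

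At 24 h AREG had 7.29, 7.45 and 6.56 in exposed skin, 6.16 in the sham, and 5.72, 6.02 and 5.70 in control skin. The difference was 1.29 with an SE of 0.24 and an adjusted p of 4.96e-05 (limma, Benjamini-Hochberg over all probe sets), in a comparison that called 24.9% of genes higher and 11.4% lower. At 48 h the exposed arrays gave 6.88, 7.29 and 7.49, the sham 6.42 and the control arrays 6.32, 5.85 and 6.08, a difference of 1.14 with an adjusted p of 0.0013. The 2 times were alike in that every exposed array lay above every control, as for 33.4% of genes at 24 h and 21% at 48 h. By 72 h the exposed values were 8.24, 7.52 and 8.83, against 6.69 in the sham and 6.65, 6.10 and 6.46 in control skin, a difference of 1.79 (adjusted p = 2.09e-06, with 9.12% of genes called higher). This group of exposed arrays was the most spread of all 9 for AREG, with an SD of 0.65.

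At 168 h exposed skin held 8.32, 8.48 and 8.72, the sham 5.96, and control skin 5.94, 5.95 and 5.65. The difference of 2.66 (95% interval 2.18 to 3.14, adjusted p = 1.53e-10, 14.5% of genes called higher) was the largest of the 9 times, and 22.2% of genes had groups apart in this direction. At 336 h the 3 exposed arrays lay close together at 7.51, 7.52 and 7.48, the sham was at 6.33 and control skin at 6.53, 6.08 and 6.29, a difference of 1.20 (adjusted p = 0.00148, 4.18% of genes called higher). At 514 h exposed skin had 7.20, 6.97 and 6.79, the sham 6.60, and control skin 6.54, 6.55 and 6.82. The lowest exposed array now lay below the highest control, and the difference of 0.35 (interval -0.13 to 0.83) did not pass (adjusted p = 0.459, with 5.56% of genes called higher). The difference at 514 h minus that at 168 h was -2.31 (SE 0.34, adjusted p = 1.32e-05), a contrast added after the values were seen, in which 4.92% of genes were called in that direction. Both parts moved: the exposed mean was 6.99 at 514 h against 8.51 at 168 h, and the control mean 6.64 at 514 h against 5.85 at 168 h. These 2 times were processed in different periods, so a difference between their levels and a difference between periods cannot be told apart, while each time's exposed and control arrays share a period.

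Averaged over windows of 3 times, AREG was 2.65-fold higher in exposed skin at 24 to 72 h, with a mean signal of 7.51 against 6.10 (9 arrays each). The log2 difference was 1.41 ± 0.14 (SE, adjusted p = 1.32e-10). At 168 to 514 h the means were 7.67 in exposed and 6.26 in control skin, and the difference was 1.40 ± 0.14 (SE, adjusted p = 5.6e-10). The window means do not show the single times, of which 168 h had the highest exposed mean. Exposed arrays of 168 h and 72 h overlapped, and these 2 times were not tested against each other. The difference between the 2 windows was -0.0015 with an interval of -0.40 to 0.39 (adjusted p = 0.998). At 1 to 4 h the means were 6.62 in exposed and 5.93 in control skin.

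**Figure D1:**
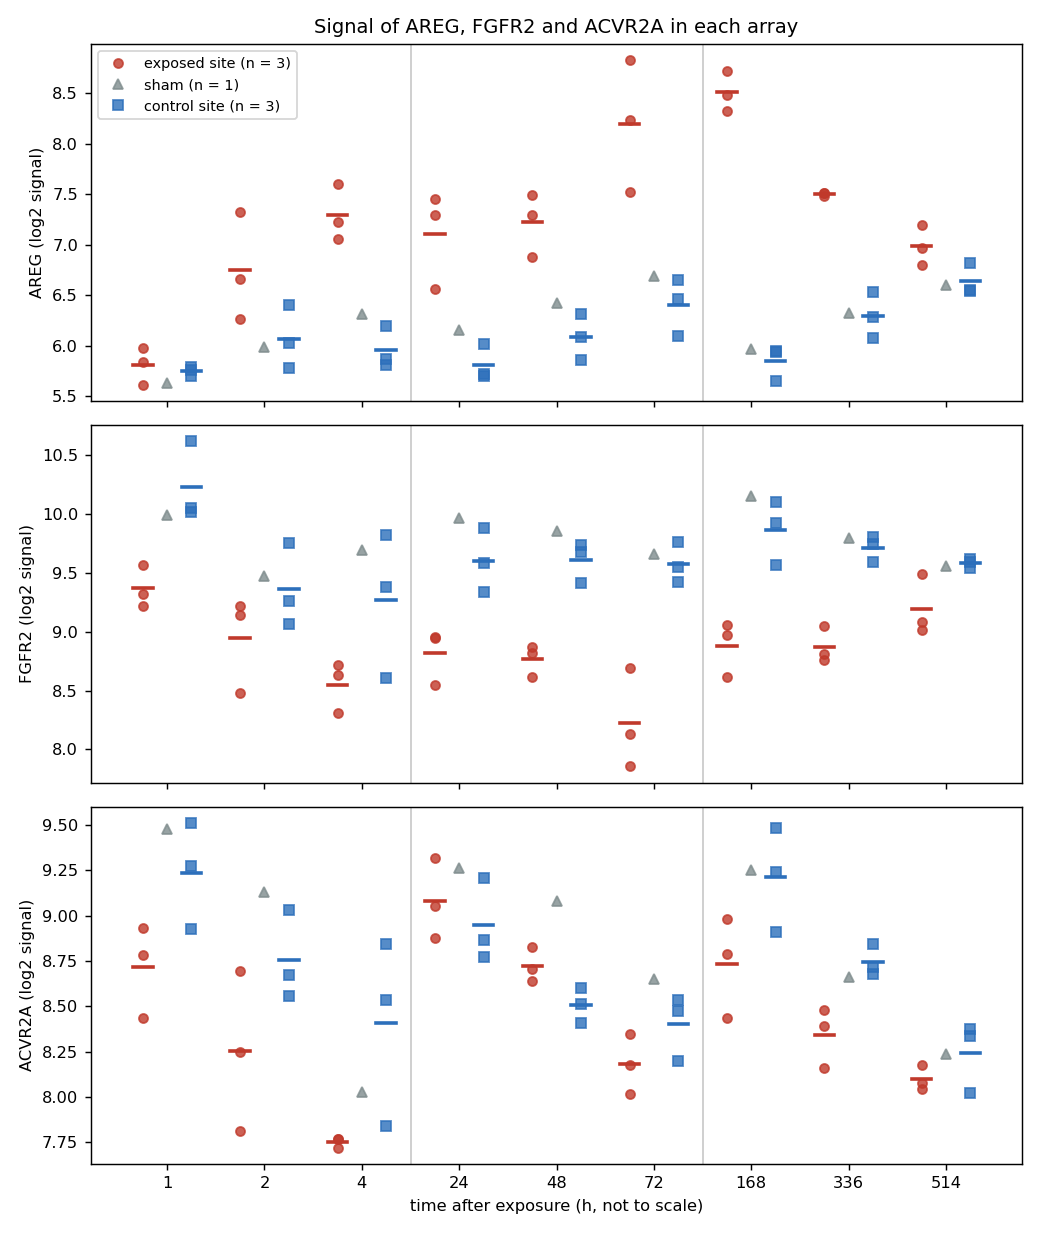
Log2 signal of AREG, FGFR2 and ACVR2A (vertical axes) in each of the 63 arrays at the 9 times (horizontal axis, not to scale), with circles for exposed sites, triangles for the sham animal, squares for control sites and bars for means of 3 arrays. AREG in exposed skin has its highest mean at 168 h with 8.32 to 8.72 above controls of 5.65 to 5.95, FGFR2 in exposed skin has its lowest mean at 72 h with 7.86 to 8.69 below controls of 9.42 to 9.77, and ACVR2A groups mostly overlap from 24 h.

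FGFR2, the fibroblast growth factor receptor, was lower in exposed than in control skin at every time. The tested differences ran from -0.78 to -1.35 between 24 and 336 h, and the lowest exposed mean of all times was 8.23 at 72 h, 2.55-fold below control. At 514 h the difference did not pass the test, although the groups still did not overlap. At 1 h FGFR2 had 9.56, 9.22 and 9.32 in exposed skin, 9.99 in the sham, and 10.62, 10.02 and 10.05 in control skin, a difference of -0.86. All exposed arrays lay below all controls and the sham, as 7.39% of genes lie below the controls. At 2 h the exposed values were 9.22, 9.14 and 8.48, the sham value 9.47 and the control values 9.07, 9.76 and 9.27, a difference of -0.42 between overlapping groups. At 4 h exposed skin had 8.31, 8.71 and 8.63, the sham 9.69 and control skin 8.61, 9.82 and 9.38, a difference of -0.72. The control array at 8.61 was the only one of the 27 controls under 9 and lay among the exposed values. It also had the highest skeletal muscle score of all 63 arrays, 13.72 as a mean of 12 muscle markers. The other 2 controls of 4 h had scores of 9.20 and 13.37, with FGFR2 at 9.82 and 9.38. The exposed arrays of 4 h had scores of 13.49, 13.10 and 13.43. Without the control at 8.61 the difference over 1 to 4 h was -0.78 rather than -0.67, and adjusting for the muscle score gave -0.64.

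At 24 h FGFR2 gave 8.96, 8.95 and 8.55 in exposed skin, 9.97 in the sham, and 9.58, 9.88 and 9.34 in control skin. The difference was -0.78 with an SE of 0.23 (adjusted p = 0.00755). At 48 h it gave 8.62, 8.82 and 8.87 in exposed skin, 9.86 in the sham, and 9.68, 9.74 and 9.41 in control skin, a difference of -0.84 (adjusted p = 0.0125, with 2.88% of genes called lower). Both times showed exposed arrays wholly below control arrays, as for 18.8% of genes at 24 h and 8.43% at 48 h. At 72 h exposed skin had 7.86, 8.69 and 8.13, the sham 9.66, and control skin 9.55, 9.77 and 9.42. This difference of -1.35 was the largest for FGFR2 (interval -1.81 to -0.89, adjusted p = 7.23e-05). At that time 4.12% of genes were called lower and 11.3% lay wholly below the controls.

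From 168 h FGFR2 stayed below control in exposed skin, with 8.61, 8.97 and 9.06 in exposed arrays at 168 h, 10.15 in the sham and 10.10, 9.93 and 9.57 in control arrays. The difference was -0.99 (adjusted p = 0.0015, 9.46% of genes called lower), and 16.9% of genes lay wholly below the controls. At 336 h exposed skin had 8.76, 9.05 and 8.81, the sham 9.80, and control skin 9.75, 9.81 and 9.59, a difference of -0.84 (adjusted p = 0.023, 1.83% of genes called lower). This call was lost in 4 of the 6 fits that left out 1 of its arrays, where the adjusted p reached 0.116. At 514 h the values were 9.01, 9.08 and 9.49 in exposed skin, 9.56 in the sham, and 9.54, 9.59 and 9.62 in control skin. The exposed arrays were still all lower, as were 10.4% of genes at 336 h and 12.5% at 514 h, but the difference of -0.39 (interval -0.85 to 0.071) did not pass (adjusted p = 0.361, with 2% of genes called lower).

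Over the windows, FGFR2 was 1.99-fold lower in exposed skin at 24 to 72 h, with means of 8.61 in exposed and 9.60 in control skin (log2 difference -0.99 ± 0.13 SE, adjusted p = 9.04e-08). It was 1.67-fold lower at 168 to 514 h, with means of 8.98 and 9.72 in exposed and control skin (log2 difference -0.74 ± 0.13 SE, adjusted p = 4.11e-05). Every exposed array lay below every control of its time in both windows, as given above with the shares of all genes. The difference between the windows was 0.25 (interval -0.12 to 0.63, adjusted p = 0.47), which does not show that they were alike. The means at 1 to 4 h were 8.96 in exposed and 9.62 in control skin.

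ACVR2A, the activin receptor, had smaller differences than AREG and FGFR2 from 24 h onward. It lay 0.50 to 0.66 below control in exposed skin at 1, 2 and 4 h, did not differ past the threshold at any single time from 24 to 514 h, and was lower over 168 to 514 h taken as a window. At 1 h exposed skin had 8.93, 8.44 and 8.78, the sham 9.48, and control skin 9.51, 8.93 and 9.27, a difference of -0.52. The highest exposed array lay just above the lowest control. At 2 h exposed skin had 8.69, 8.25 and 7.81, the sham 9.13, and control skin 8.56, 9.03 and 8.67, a difference of -0.50. The sham lay above all 6 others and the groups overlapped. At 4 h exposed skin had 7.72, 7.77 and 7.77, the sham 8.03, and control skin 7.84, 8.84 and 8.54, a difference of -0.66. Exposed arrays lay wholly below controls, as 6.62% of genes do, with a margin set by the control array at 7.84. That array is the control with the highest muscle score, in which FGFR2 was also low. The difference over 1 to 4 h was -0.56, against -0.65 without this array and -0.54 after adjusting for the muscle score.

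At 24, 48 and 72 h no ACVR2A difference passed. At 24 h ACVR2A had 9.32, 8.88 and 9.06 in exposed skin, 9.26 in the sham, and 8.87, 9.21 and 8.77 in control skin, a difference of 0.13 (adjusted p = 0.686). At 48 h it had 8.70, 8.83 and 8.64 in exposed skin, 9.08 in the sham, and 8.41, 8.51 and 8.60 in control skin, a difference of 0.22 (adjusted p = 0.604). These 48 h groups did not overlap, as for 21% of genes in this direction, and the sham lay above them all. At 72 h it had 8.02, 8.35 and 8.18 in exposed skin, 8.65 in the sham, and 8.47, 8.54 and 8.20 in control skin, a difference of -0.22 (adjusted p = 0.589). Over 24 to 72 h the mean was 8.66 in exposed and 8.62 in control skin. The difference of 0.044 had an interval of -0.18 to 0.27 (adjusted p = 0.816). Its sign was not stable: the window gave -0.34 with sham arrays as the control group and -0.031 after adjusting for the muscle score.

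At 168 h ACVR2A had 8.98, 8.44 and 8.79 in exposed skin, 9.25 in the sham, and 9.24, 9.48 and 8.91 in control skin. The difference of -0.48 did not pass (adjusted p = 0.0873). It passed with -0.57 after adjusting for the muscle score (adjusted p = 0.0317), with the arrays of its window alone (0.0371) and without control replicate 3 (0.0428). At 336 h it had 8.16, 8.48 and 8.39 in exposed skin, 8.66 in the sham, and 8.72, 8.84 and 8.68 in control skin, a difference of -0.40 (adjusted p = 0.329). The groups did not overlap, as for 10.4% of genes in this direction. At 514 h it had 8.08, 8.18 and 8.04 in exposed skin, 8.24 in the sham, and 8.34, 8.37 and 8.02 in control skin, a difference of -0.15 (adjusted p = 0.747). Over the 3 times the mean was 8.39 in exposed and 8.73 in control skin, a 1.27-fold lower level (log2 difference -0.34 ± 0.11 SE, adjusted p = 0.0246). Leaving out exposed replicate 2 or control replicate 2 of 168 h, or exposed replicate 1 of 336 h, ended this call (adjusted p 0.0579 to 0.0695). The difference from the 24 to 72 h window, -0.38 ± 0.16 (SE), did not pass (adjusted p = 0.134).

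The other ACVR2A probe set was dim, with a mean of 6.53. It moved by -0.13 at 1 to 4 h, 0.070 at 24 to 72 h (adjusted p = 0.595) and -0.066 at 168 to 514 h (adjusted p = 0.658). Thus the late call for ACVR2A rests on 1 of its 2 probe sets, and the mean of both gave -0.20 (adjusted p = 0.0789).

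All 3 members counted together, 2 were called at 24 to 72 h (AREG higher, FGFR2 lower), where 45.1% of genes were called in either direction, 30.8% higher and 14.3% lower. At 168 to 514 h all 3 were called, where 29.3% of genes were called, 18.9% higher and 10.5% lower. Between the windows none of the 3 passed by limma, where 11.6% of genes did, and 1 of the 3 (ACVR2A) had an unadjusted p under 0.05. At 1 to 4 h, the window known when the members were picked, 5.59% of genes were called. The median difference over all genes was 0.0193, 0.0571 and 0.0196 in the 3 windows in time order.

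**Figure D2:**
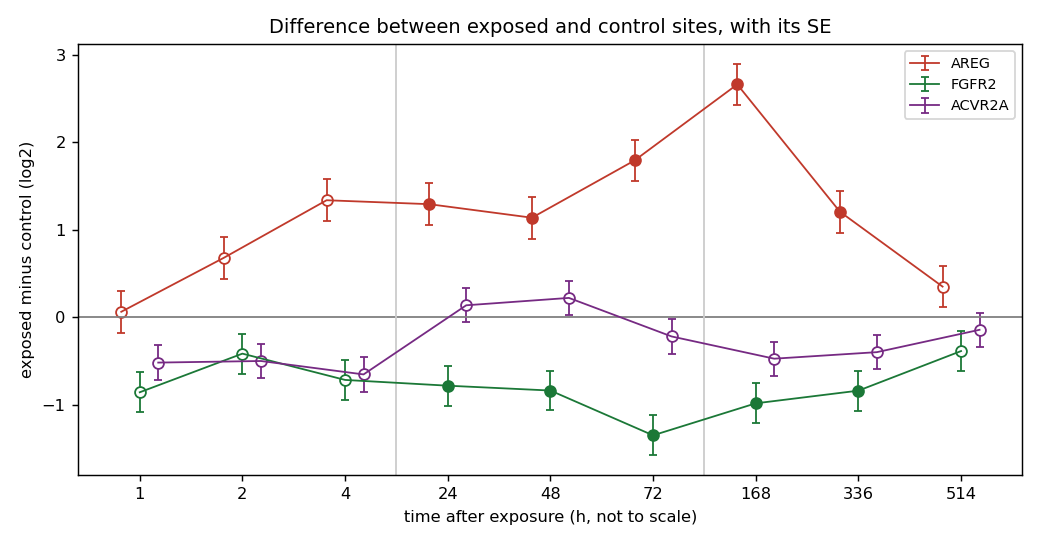
Difference between the mean log2 signal of exposed and control sites (vertical axis, n = 3 each) with its SE (bars) for the 3 genes at the 9 times (horizontal axis, not to scale). Filled points passed an adjusted p of 0.05, open points from 24 h did not, and open points at 1, 2 and 4 h were not tested. The AREG difference reaches 2.66 at 168 h and is 0.35 at 514 h, FGFR2 stays below 0 throughout with -1.35 at 72 h, and ACVR2A runs between -0.66 and 0.22.

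Sham and control skin were not separated by the test for any of the 3 genes. Over 24 to 514 h the sham minus control difference was 0.18 for AREG (interval -0.10 to 0.46, adjusted p = 0.791), 0.17 for FGFR2 (interval -0.092 to 0.44, adjusted p = 0.788) and 0.18 for ACVR2A (interval -0.047 to 0.41, adjusted p = 0.748). In this comparison 0.0148% of genes were called. FGFR2 in the sham lay above all exposed and control arrays at 24, 48 and 168 h, and ACVR2A did so at 2, 48 and 72 h. AREG in the sham lay above all 3 controls at 4, 24, 48, 72 and 168 h, by 0.12 to 0.36 over the control mean, and below all exposed arrays at each of these times. At 1 h it lay below all 3 controls, and at 2, 336 and 514 h within their range. A sham group is 1 array, and the share of all genes whose sham lay so was not computed. These positions are therefore not read as a result about the members. The number of arrays limits precision throughout.

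The 18 exposed and control groups were set in order of their means. Sorting this many groups makes neighbouring steps small, so step size does not show how gradual the levels were. For AREG exposed skin at 168 h came first (8.51 ± 0.20, SD, n = 3), then exposed skin at 72 h (8.20 ± 0.65), at 336 h (7.50 ± 0.02), 4 h (7.29), 48 h (7.22), 24 h (7.10), 514 h (6.99) and 2 h (6.75). All 9 control groups and exposed skin at 1 h lay below these, between 5.75 and 6.64. Of the 17 steps between neighbours 1, that from 72 h to 336 h, exceeded the larger SD of its 2 groups. For FGFR2 all 8 groups at the bottom were exposed, and 7 controls stood at the top from 10.23 ± 0.34 at 1 h to 9.58 at 72 h. There 3 of 17 steps exceeded the larger SD. ACVR2A mixed both kinds of group over its whole range, from 9.24 ± 0.29 in controls of 1 h to 7.75 ± 0.03 in exposed skin at 4 h, and 1 of 17 steps exceeded the larger SD. Its control means ran from 9.24 at 1 h to 8.24 at 514 h, a wider span than any exposed minus control difference. They sorted by processing period. Means were 8.95 to 9.24 at 1, 24 and 168 h and 8.51 to 8.75 at 2, 48 and 336 h. At 4, 72 and 514 h they were 8.24 to 8.41. No trend with time is read from them.

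Arrays of 1 time were not always amplified in 1 batch of in vitro transcription, and at 24, 168 and 336 h a batch held both kinds of site. Within the 2 batches of 168 h the AREG difference was 2.60 (2 exposed and 2 control arrays) and 2.78 (1 each). Within those of 336 h it was 0.98 and 1.30. At 24 h it was 1.66 in the batch with 2 arrays of each kind and 0.55 in the batch with 1 of each, both above 0. FGFR2 stayed lower in every such batch, with -0.51 and -1.33 at 24 h, -0.96 and -1.05 at 168 h, and -0.84 and -0.89 at 336 h. ACVR2A gave 0.28 and -0.15 at 24 h, -0.49 and -0.45 at 168 h, and -0.40 and -0.37 at 336 h. At the other times with 1 batch the values are those given above, apart from 1 h, where 1 control array came from another batch and the rest gave 0.036 for AREG, -0.67 for FGFR2 and -0.38 for ACVR2A.

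The labels also score the histology of each biopsy. Exposed skin scored 0 for epidermal necrosis at 1, 2 and 4 h and 3 or 4 at 24, 48 and 72 h. Dermal necrosis was scored 0 at 1 and 2 h, 1 in all 3 exposed biopsies at 4 h and 4 at 24, 48 and 72 h, and follicular damage was scored 1 in 1 of the 3 at 4 h. Re-epithelialisation was scored 0 (not complete) in all 3 exposed biopsies at 168 h, where the AREG mean was highest. It was scored 0 in 2 of 3 at 336 h, and in none at 514 h, where AREG overlapped its controls. At 336 h AREG was 7.48 in the biopsy scored 1 and 7.51 and 7.52 in the 2 scored 0. The score otherwise changed with time and processing period, and a link with AREG was not tested.

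Of 134 listed genes around the 3 members, 63 were measured: 7 were higher and 6 lower in exposed skin at 1 to 4 h, 19 higher and 18 lower at 24 to 72 h, and 12 higher and 12 lower at 168 to 514 h. These are 11.1% and 9.52%, 30.2% and 28.6%, and 19% and 19% of the 63 measured genes, beside 2.85% and 2.73%, 30.8% and 14.3%, and 18.9% and 10.5% of all genes. The list medians were 0.0129, 0.00755 and 0.00584, beside 0.0193, 0.0571 and 0.0196 for all genes. Members are left out of these counts. The lists were chosen with earlier results of these data known. Calls and shares of listed genes at 1 to 4 h are therefore a description and no test of the lists.

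Among EGF family ligands 3 of 9 were measured, and HBEGF alone was called. HBEGF, a ligand shed from keratinocytes in wounds, was higher in exposed skin at 24 to 72 h (0.70 ± 0.16 SE, adjusted p = 0.000697) and at 168 to 514 h (0.55 ± 0.16, adjusted p = 0.0114). At single times HBEGF passed at 24 h (1.23) and at 168 h (1.10), and 168 h is also the time of the highest AREG mean. TGFA, a further EGFR ligand, gave -0.24, -0.031 and 0.17 in the 3 windows and did not pass. At 168 h AREG was thus 2.66 higher, HBEGF 1.10 higher, and TGFA 0.15 (adjusted p = 0.494).

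Of 9 measured ERBB receptors and regulators, GRB2, RHBDF2 and SHC1 rose and EGFR, LRIG1 and CD9 fell, in each of the later windows. EGFR, the receptor of AREG, was lower at 24 to 72 h (-0.65 ± 0.10 SE, adjusted p = 1.69e-06) and gave -0.33 at 168 to 514 h (adjusted p = 0.0139). LRIG1, which restrains ERBB receptors, was lower in all 3 windows with -0.39, -0.29 and -0.52 (adjusted p = 0.00657 and 1.4e-05 in the later windows). GRB2, the adaptor that links receptors to RAS, was higher by 0.93 and 0.60 in the later windows, and RHBDF2, which brings ADAM17 to the cell surface, by 0.52 and 0.41. ADAM17 itself gave 0.16 (adjusted p = 0.117) and -0.0056 (adjusted p = 0.973).

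Of 5 measured RAS-MAPK feedback and target genes, 3 rose at 1 to 4 h, 4 at 24 to 72 h and 1 at 168 to 514 h. IER3, an immediate early gene, was higher by 1.41 at 1 to 4 h. MYC, a transcription factor of growth, was higher by 1.15 there, and DUSP6, a phosphatase that switches ERK off, by 0.67. These early values are a description, since the list was chosen with earlier results known. IER3 was called at 24 to 72 h too, with 0.75 (adjusted p = 0.000137), as was FOSL1 of the same list, with 0.35 (adjusted p = 3.75e-05). DUSP6 was called in both later windows, with 0.63 and 0.51. At 514 h, where the AREG difference was 0.35, DUSP6 gave -0.0062 (adjusted p = 0.993). At 1 h, where the AREG difference was 0.060, DUSP6 gave 0.61. A link between AREG and DUSP6 was not tested.

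Among FGF ligands and their binding partners 11 of 19 were measured. FGF7, the ligand of epithelial FGFR2, was higher by 0.33 at 24 to 72 h (SE 0.08, adjusted p = 0.000718) while the receptor was lower, and gave 0.022 at 168 to 514 h (adjusted p = 0.884). FGF2 gave -0.066, 0.093 and 0.099 and did not pass. The heparan sulfate carriers moved apart at 24 to 72 h: SDC4 was higher by 0.93 (adjusted p = 7.6e-14) while SDC1, the main epidermal syndecan, gave -0.92 (adjusted p = 1.35e-05). NCAM1, a cell adhesion molecule of nerve and muscle that binds FGF receptors, gave -1.32 and -1.18 in the later windows. FGF18 (-0.41) and GPC3 (-0.52) were lower at 168 to 514 h.

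Of 5 measured FGF receptors and intracellular partners, FGFR2 itself left out, 4 fell at 24 to 72 h. ESRP1, the epithelial splicing factor that sets the epithelial form of FGFR2, gave -1.40 (SE 0.15, adjusted p = 1.6e-09), PLCG1 -0.60 (adjusted p = 9.86e-07) and GAB1 -0.50 (adjusted p = 8.13e-09). None of the 5 passed at 168 to 514 h by limma, where ESRP1 gave -0.16 (adjusted p = 0.502) while FGFR2 was still lower by the values above, and 0 of them had an unadjusted p under 0.05. ESRP1 was at -1.19 at 168 h and at 0.12 and 0.58 at 336 and 514 h, where it did not pass. FGFR1, the main receptor of dermal cells, gave 0.11, 0.16 and -0.10 and did not pass.

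Of 12 measured activin and related ligands and antagonists, 3 rose and 3 fell at 24 to 72 h, and 3 rose and 4 fell at 168 to 514 h. INHBA, which encodes the activin A subunit, was higher by 0.23 and 0.28 (adjusted p = 0.00358 and 0.000915), with 0.50 at 24 h and 0.64 at 168 h as the single times that passed. FST, follistatin, which binds and blocks activin, gave -0.25 (adjusted p = 0.138) and -0.60 (adjusted p = 0.000619). FSTL3, of the same family, was higher by 0.48 at 1 to 4 h and by 0.45 at 24 to 72 h. TGFB1 was higher by 0.59 and 1.10 in the later windows (adjusted p = 4.82e-06 and 4.54e-11) and TGFB2 gave -0.91 and -0.64. BMP7 gave -0.52 and -0.53.

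Among 9 measured activin, BMP and TGF-beta receptors ACVR1B, a type I partner of ACVR2A, was lower at 1 to 4 h (-0.34) and was not called later (-0.13 and -0.073). The close relative of ACVR2A, ACVR2B, gave 0.013, -0.13 and -0.22 and did not pass. ACVR1 gave 0.043, -0.18 and -0.17 without passing. BMPR1A gave -0.71 at 24 to 72 h (adjusted p = 3.08e-06). BMPR1B was lower at 1 to 4 h and at 24 to 72 h (-0.51 and -0.65) and higher at 168 to 514 h (0.44), all past the threshold. ENG, an endothelial co-receptor, was higher by 0.50 and 0.31.

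Of 9 measured SMADs and direct SMAD targets, ID1, ID2 and ID3, inhibitors of differentiation, were higher at 1 to 4 h by 0.59, 0.58 and 0.44. ID3 was also higher by 0.72 at 24 to 72 h (adjusted p = 2.64e-06) and by 0.38 at 168 to 514 h (adjusted p = 0.0118). A link of these genes with ACVR2A was not tested. SMAD1 was lower in all 3 windows (-0.36, -0.57 and -0.29). SMAD3, which carries the activin and TGF-beta signal, was higher by 0.74 at 24 to 72 h, and PMEPA1, a target that damps this pathway, gave -0.60. ID4 gave -0.57 and -0.38 in the later windows. EREG, ERRFI1, FGF10, FGFR3 and SMAD7 have no probe set with a symbol of their own here.

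**Figure D3:**
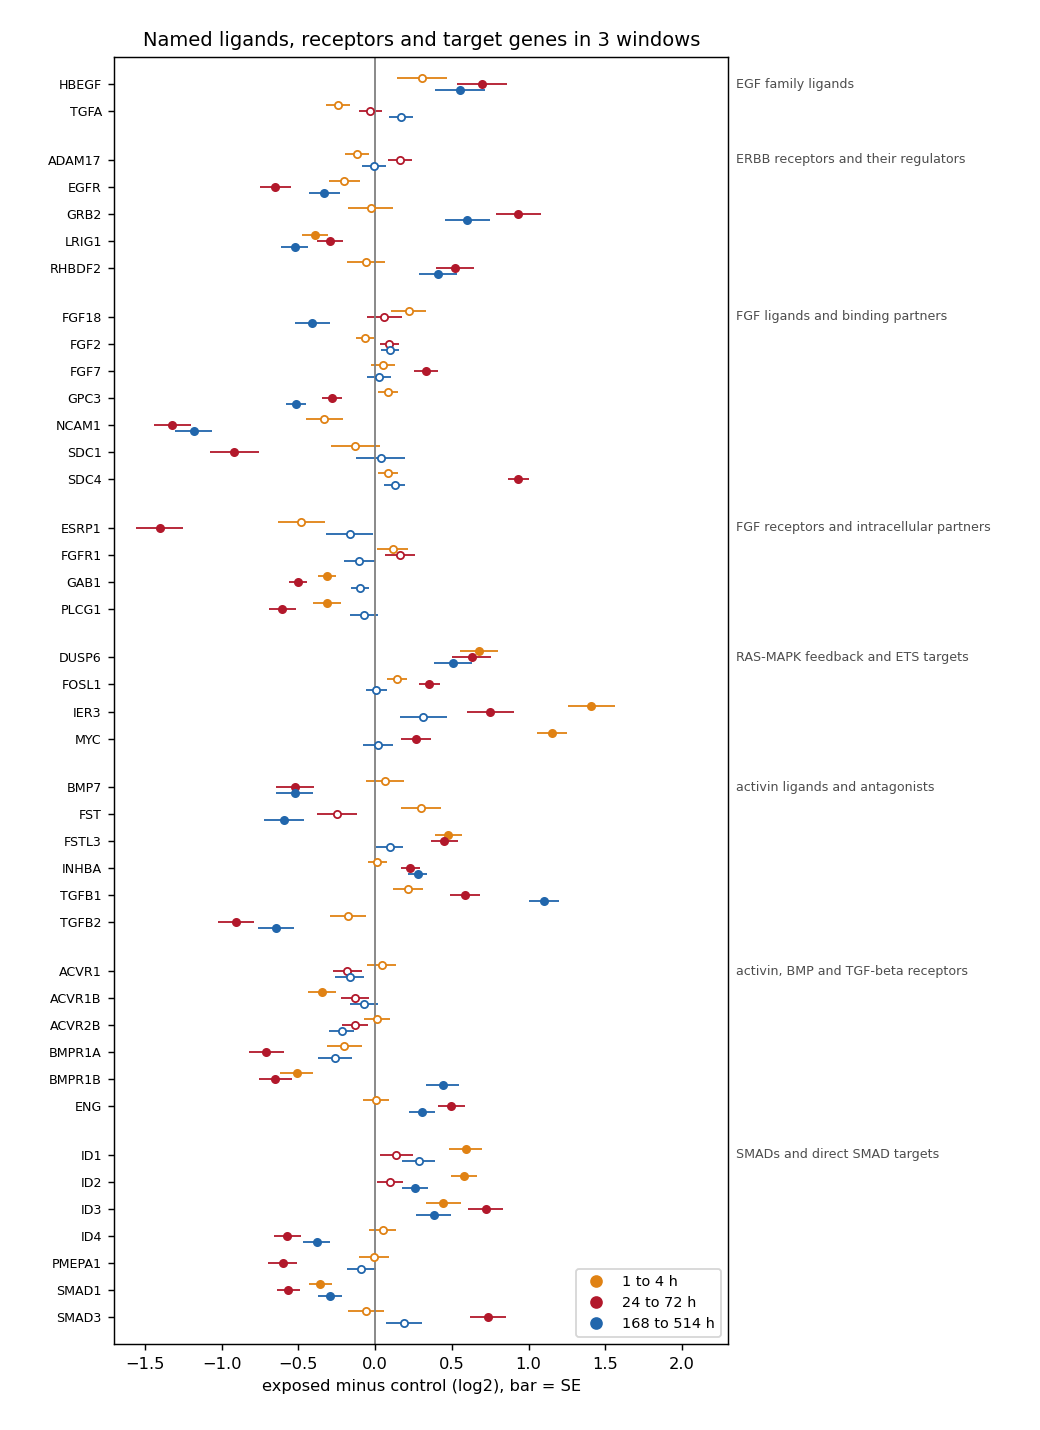
Log2 difference between exposed and control sites (horizontal axis, 9 arrays each, bars show the SE) of the named ligands, receptors and target genes in windows of 1 to 4 h, 24 to 72 h and 168 to 514 h, grouped by list. Filled points passed an adjusted p of 0.05, which at 1 to 4 h is a description and no test of the lists. IER3 reaches 1.41 at 1 to 4 h, ESRP1 reaches -1.40 and NCAM1 -1.32 at 24 to 72 h, and TGFB1 reaches 1.10 at 168 to 514 h.

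The genes whose signals ran most like each member were found by Pearson's r over the 63 arrays. Every r here pools the 3 processing periods, also within exposed or control arrays. The arrays share the groups and so share their means, and the genes are given as a description. For AREG they were SELP (P-selectin, an endothelial adhesion molecule, r = 0.862), GLA (0.828), CDA (0.828), CPPED1 (0.822) and CXCL8 (a neutrophil chemokine, 0.818). Within the 27 exposed arrays alone r was 0.747 for SELP and 0.741 for CXCL8, and within the 27 controls 0.791 and 0.232. For FGFR2 they were GATA3 (a transcription factor of epidermis and hair follicle, 0.895), ABHD12B (0.878), OCLN (occludin, a tight junction protein, 0.857), SLCO3A1 (0.850) and BTBD3 (0.844). GATA3 kept r = 0.766 in exposed arrays and 0.759 in controls. For ACVR2A they were PTPRA (0.783), COL1A2 (a collagen chain, 0.781), C9H11orf52 (0.764), CTCF (0.762) and TMEM43 (0.761). Between members, r was -0.684 for AREG with FGFR2 over all arrays but -0.495 in exposed arrays and -0.055 in controls. FGFR2 and ACVR2A gave 0.592 over all arrays, 0.344 in exposed arrays and 0.747 in controls, and AREG and ACVR2A gave -0.385, -0.087 and -0.468.

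Markers of the cells a biopsy can hold were set beside each member. Of 16 leukocyte markers 13 were measured, none was called at 1 to 4 h by limma (1 had an unadjusted p under 0.05), and 11 were higher in both later windows. Their mean signal per array ran from 9.16 to 10.50 in exposed, from 7.77 to 8.20 in sham and from 7.76 to 9.16 in control skin at 24 to 72 h. At 168 to 514 h it ran from 8.93 to 9.95, from 7.86 to 8.58 and from 7.95 to 9.19 in exposed, sham and control skin. AREG followed this mean with r = 0.814 over 63 arrays, 0.738 in exposed arrays and 0.517 in controls. With the leukocyte mean of each array as a covariate both AREG calls were kept. The AREG difference was then 1.14 at 24 to 72 h (adjusted p = 0.0183) and 1.18 at 168 to 514 h (adjusted p = 0.0107). With the basal mean it was 1.25 and 1.29 (adjusted p = 0.000234 and 1.96e-05). With the differentiated mean it was 2.60 and 1.96 (adjusted p = 1.95e-07 and 8.65e-11), against 1.41 and 1.40 without a covariate. Each of these means itself differs between exposed and control skin, so the fits cannot separate cell content from exposure. The part of leukocytes in the AREG difference was not tested. At 4 h the leukocyte mean ran from 8.33 to 8.48 in exposed skin, was 8.33 in the sham, and ran from 8.09 to 8.64 in control skin.

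Of 13 markers of differentiated keratinocytes 7 were measured and 6 were lower at 24 to 72 h, with a median difference of -1.84, and 4 were lower and 2 higher at 168 to 514 h. At 514 h, where FGFR2 gave -0.39, the mean of the 7 was higher in exposed skin, at 12.78 to 12.98, than in the sham, at 12.28, and in control skin, at 12.14 to 12.26. Of 9 basal markers only ITGA6, COL17A1 and DST were measured, and ITGA6 was dim at 5.45, so keratins KRT5 and KRT14 give no check here. The basal mean ran from 7.32 to 7.62 in exposed, from 7.88 to 8.10 in sham and from 7.64 to 8.05 in control skin at 24 to 72 h. FGFR2 followed it with r = 0.799 over 63 arrays, 0.652 in exposed arrays and 0.611 in controls. With the basal mean as a covariate the FGFR2 difference was -0.38 at 24 to 72 h (adjusted p = 0.183) and -0.29 at 168 to 514 h (adjusted p = 0.315), and with the differentiated mean -0.21 (adjusted p = 0.751) and -0.37 (adjusted p = 0.141). Both FGFR2 calls were lost in these fits. They were also lost with the leukocyte mean, where the differences were -0.78 (adjusted p = 0.116) and -0.56 (adjusted p = 0.323). These covariates were chosen after the data were seen, and each differs between exposed and control skin itself. The fits therefore cannot separate cell content from exposure, and the part of keratinocytes in the FGFR2 difference was not tested. At 1 to 4 h none of these 7 differentiated and 3 basal markers was called by limma and 1, a basal one, had an unadjusted p under 0.05. There FGFR2 was -0.67 without a covariate and -0.54 with the basal mean.

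ACVR2A followed the basal mean with r = 0.436 over 63 arrays, -0.058 in exposed arrays and 0.727 in controls, and the hair follicle gene SOX9 with 0.589, 0.634 and 0.626. Control means of SOX9 sorted by processing period too, as those of ACVR2A did. They were 6.31 to 6.74 at 1, 24 and 168 h and 6.15 to 6.23 at 2, 48 and 336 h. At 4, 72 and 514 h they were 5.84 to 6.10. Each r pools the 3 periods and so carries their differences. At 168 to 514 h the ACVR2A difference was -0.15 with the basal mean (adjusted p = 0.683), -0.086 with the differentiated mean (adjusted p = 0.765) and -0.49 with the leukocyte mean (adjusted p = 0.31), so this call was lost in each. At 24 to 72 h the same covariates gave 0.31, 0.59 and -0.14 (adjusted p = 0.301, 0.161 and 0.858), against 0.044 without them. Skeletal muscle varied most among arrays, with a mean of its 12 measured markers from 6.75 to 13.72, but with the muscle mean as a covariate the AREG and FGFR2 calls in both windows held. Markers of activated keratinocytes and of hair follicles were represented by 1 gene each, SERPINB2 and SOX9, so the part of these cells in the 3 members was not tested.

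**Figure D4:**
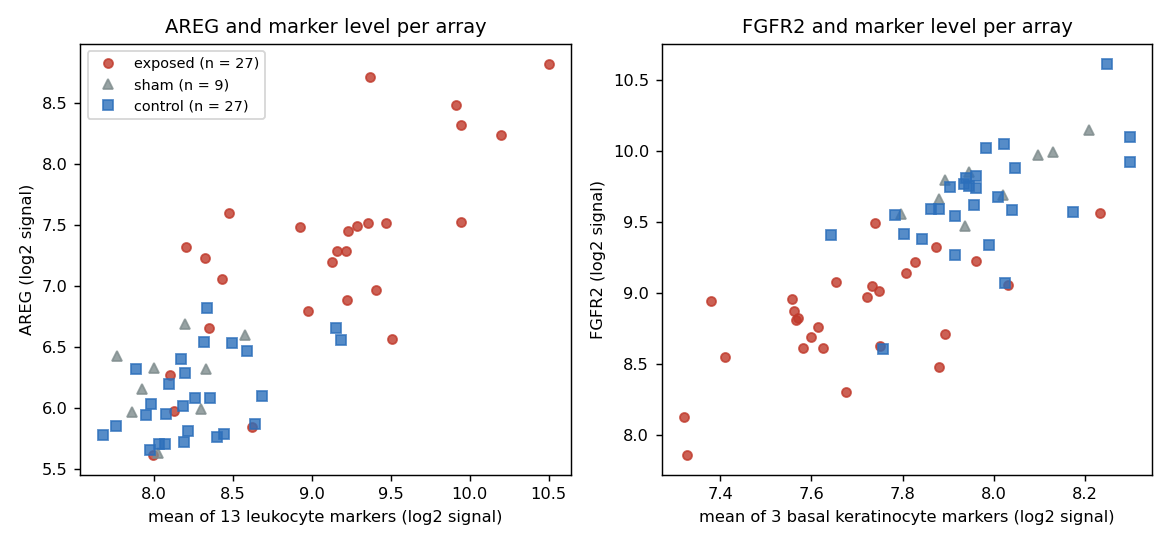
Left, AREG log2 signal (vertical) against the mean log2 signal of 13 leukocyte markers (horizontal), and right, FGFR2 against the mean of 3 basal keratinocyte markers, with 1 point per array for exposed (n = 27), sham (n = 9) and control sites (n = 27). AREG is higher in arrays with more leukocyte signal (r = 0.814) and FGFR2 is lower in arrays with less basal keratinocyte signal (r = 0.799). The lone control with a low FGFR2 value of 8.61 is replicate 1 of 4 h.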

How the data were processed

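Total RNA of 63 skin biopsies was amplified, labelled with biotin and hybridised to Affymetrix GeneChip Porcine Genome arrays, 1 biopsy per array. The deposited unit is the log2 signal of a probe set. The authors made them with RMA, and Partek is also named, per the submitters' processing notes, neither with a version. The values ran from 4.05 to 14.54 with column medians of 7.75 to 7.86, and no further scaling was applied. Of 24123 probe sets 124 controls were left out. The supplied annotation gave 1 symbol to 10069 probe sets and several to 198, and 13732 are unnamed here. Where a gene had several probe sets, the one with the highest mean over 63 arrays was used.

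All arrays were fitted in limma 3.58.1 (R 4.3.3, with the data.table package, version 1.17.8) with 1 mean per group and 36 residual degrees of freedom. Groups came from the sample titles. Exposed sites were compared with control sites at each time and over 3 windows of 3 times, the late window with the middle one, and sham with control over the 6 later times. P values are two-sided, moderated, and adjusted by Benjamini-Hochberg over 23999 probe sets, with a threshold of 0.05. Exposed and control sites of a time come from the same 3 animals, and main fits treat arrays as separate. Arrays of the 9 times were processed in 3 periods, each with 1 time of every window.

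Members, gene lists and marker lists were chosen with earlier results of these data known. Named pathway genes were, per list and window, the 3 largest changes among called genes at most, or the 1 largest where none was called, plus 18 genes named whatever their value. For each member the 5 genes with the highest r were named. Values at single times of pathway genes were chosen after being seen. Alternatives covered the normalisation, probe set choice, filter on dim probe sets, arrays in the fit, muscle score, amplification batch, replicate block, sham as control, variance prior and leaving out each array. The test procedure was tested on simulated data. No genome or sequences were used here, so no positions are given.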

Additional observations from a re-analysis of the deposited data

Results flagged for a closer look

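The AREG difference between exposed and control skin was tested between 168 and 514 h, and it was smaller at 514 h by -2.31 on the log2 scale (SE 0.34, interval -2.99 to -1.63, adjusted p = 1.32e-05 by limma). It drew attention because the effects of 2 times differ by a direct test. Exposed AREG arrays were at 7.20, 6.97 and 6.79 at 514 h and at 8.32, 8.48 and 8.72 at 168 h. Control arrays were at 6.54, 6.55 and 6.82 at 514 h and at 5.94, 5.95 and 5.65 at 168 h. The contrast was chosen after the data were seen, the 2 times were processed in different periods, and leaving out each array in turn gave -2.42 to -2.21. The same contrast gave 0.60 for FGFR2 (adjusted p = 0.288) and 0.33 for ACVR2A (adjusted p = 0.536). Groups of 3 arrays or 1 array were not searched for outlying arrays.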

How the results depend on the processing

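Over the fits other than the covariates and the single arrays left out, both AREG windows and both FGFR2 windows kept their direction and their call. With sham arrays as the control group the ACVR2A difference was -0.34 at 24 to 72 h, -0.18 at 24 h, -0.35 at 48 h and -0.32 at 168 to 514 h (adjusted p = 0.211), and late minus middle was 0.011 for ACVR2A and 0.28 for AREG. In the same setting the listed genes called at 1 to 4 h came to 4 higher and 1 lower, those called higher at 168 to 514 h came to 7, and AREG lost its calls at 24, 48 and 336 h (adjusted p 0.0568, 0.138 and 0.079) and FGFR2 at 336 h (0.197). Adjusting for the muscle score, ACVR2A gave -0.031 at 24 to 72 h and -0.00043 at 24 h. With the basal, differentiated and leukocyte scores, FGFR2 gave -0.38, -0.21 and -0.78 at 24 to 72 h and -0.29, -0.37 and -0.56 at 168 to 514 h, and ACVR2A -0.15, -0.086 and -0.49 at 168 to 514 h, all without a call. For ACVR2A at 24 to 72 h they gave 0.31, 0.59 and -0.14, and for AREG 1.25, 2.60 and 1.14 at 24 to 72 h and 1.29, 1.96 and 1.18 at 168 to 514 h. The mean of both ACVR2A probe sets gave -0.20 at 168 to 514 h. Arrays of 24 to 514 h alone gave late minus middle of -0.38 for ACVR2A with an adjusted p of 0.042, a call that the fit of all arrays lacks. Quantile normalisation gave 0.010 for AREG late minus middle.

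Leaving out each array in turn gave -0.39 to -0.29 for ACVR2A at 168 to 514 h, -0.11 to 0.10 for AREG late minus middle, and 4 to 10 listed genes lower at 1 to 4 h, with 10 without control replicate 1 of 4 h. The FGFR2 calls at 24 and 48 h were each lost in 2 of 6 such fits. The cause of these changes was not tested.

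The replicate number was set as a block on exposed and control arrays. Of 27 same-numbered pairs 21 had residuals with r over 0.1 (mean 0.27), at 5 of 9 times all 3. The labels do not say whether a shared number marks the same animal, so the main fits did not use the numbers as pairs. The replicate block gave 1.41 and 1.40 for AREG in the later windows (adjusted p = 3.75e-09 and 1.31e-08), -0.99 and -0.74 for FGFR2 (7.15e-08 and 8.92e-06) and -0.34 for ACVR2A at 168 to 514 h (0.0219), and changed no call of a member. Of all recomputed values 919 kept direction and call, 28 changed sign, 26 lost and 4 gained a call, and 4 counts moved by over 1.5 times. AREG is dim, so its fold changes may be understated.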
